A study of Mus musculus with 6 samples.

Results

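The 9 genes described here carry out sulfation in the mouse liver: the cytosolic sulfotransferases Sult1e1, Sult1a1, Sult1b1, Sult1c2, Sult1d1, Sult2a8 and Sult5a1, and the paired synthases Papss1 and Papss2. They were chosen by gene name, and all 9 were found among the 15454 rows of the count table and among the 21948 rows of the FPKM table (fragments per kilobase of transcript per unit of library size). All 9 were also among the 12411 genes with enough counts to be tested. The names were picked with earlier results of these same livers known, so the difference between groups for each of them is given as a description, without a p-value.

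Sulfation moves a sulfonate group from the donor PAPS (3'-phosphoadenosine 5'-phosphosulfate) onto a hormone, bile acid, neurotransmitter or drug, which usually makes the molecule more water-soluble and, for hormones, unable to bind its receptor. PAPS is made from sulfate and ATP by Papss1 or Papss2, and the liver is a main site of both steps. Sult1e1, the estrogen sulfotransferase, is normally low in the liver of male mice and is known to be inducible there by nuclear receptors and by oxidative stress.

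To examine how these genes differ with ginsenoside Rk2, a saponin of heat-processed ginseng, RNA sequencing of 6 livers was used. All livers came from male C57BL/6 mice aged 8 to 10 weeks in which 75% of the liver had been made ischemic at body temperature and then reperfused. Injections were intraperitoneal, and the study reports its liver sequencing for the higher of its Rk2 doses. The I/R group (n = 3) was given the vehicle solution and the I/R+Rk2 group (n = 3) was given Rk2 dissolved in it. Both were given 2 days before the operation and again as perfusion began. Ischemia, surgery and vehicle were therefore common to both groups; sham-operated livers were not analysed here, so a level in an uninjured liver cannot be set beside these values. The labels number the livers 1 to 3 within a group without saying in words that each is a different mouse. Each SD below is the spread between the livers of a group, and each SE comes from the fit to all 6 livers.

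Library totals ran from 16809613 to 35618074 counts, and 3 counts stood for 0.0888 to 0.184 CPM (counts scaled to a common library size). Hepatocyte markers were abundant in every library: 10 of 10 were tested, and their summed level was 62110 to 72320 CPM in the I/R livers and 93850 to 116900 CPM in I/R+Rk2. Over all genes tested, 1813 (14.6%) passed both limits, an edgeR quasi-likelihood adjusted p (Benjamini-Hochberg) under 0.05 together with a change of over 2-fold, and 78.3% of them were lower in I/R+Rk2. With FPKM in place of counts, 88.8% to 91.1% of the genes past those limits were lower. With library size alone in place of the trimmed mean of M values (TMM) scaling used here, the median log2 fold change of all genes moved from -0.01 to -0.17. The median of the 9 genes moved with it from 0.37 to 0.21.

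Sult1e1 was present in every I/R liver and almost absent from the I/R+Rk2 livers, and it stood apart from the other 8 genes, whose means differed by at most 1.04 on the log2 scale. Sult1c2, Sult1b1, Papss2 and Papss1 were higher in each I/R+Rk2 liver than in any I/R liver. Sult1a1, Sult2a8, Sult1d1 and Sult5a1 overlapped between the groups. Of the 9 genes, 5 had an adjusted p below 0.05, where 43.9% of all genes tested did, and 2 of these (Sult1e1 and Sult1c2) also had a fold change above 2, where 14.6% of all genes did (3.17% higher and 11.4% lower). The groups did not overlap for 5 of the 9 genes, against 57.4% of all genes tested (27.1% with I/R+Rk2 higher in every liver and 30.3% with I/R higher). The fold limit fell between Sult1c2, with a log2 fold change of 1.04, and Sult1b1, with 0.74.

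**Figure D1:**
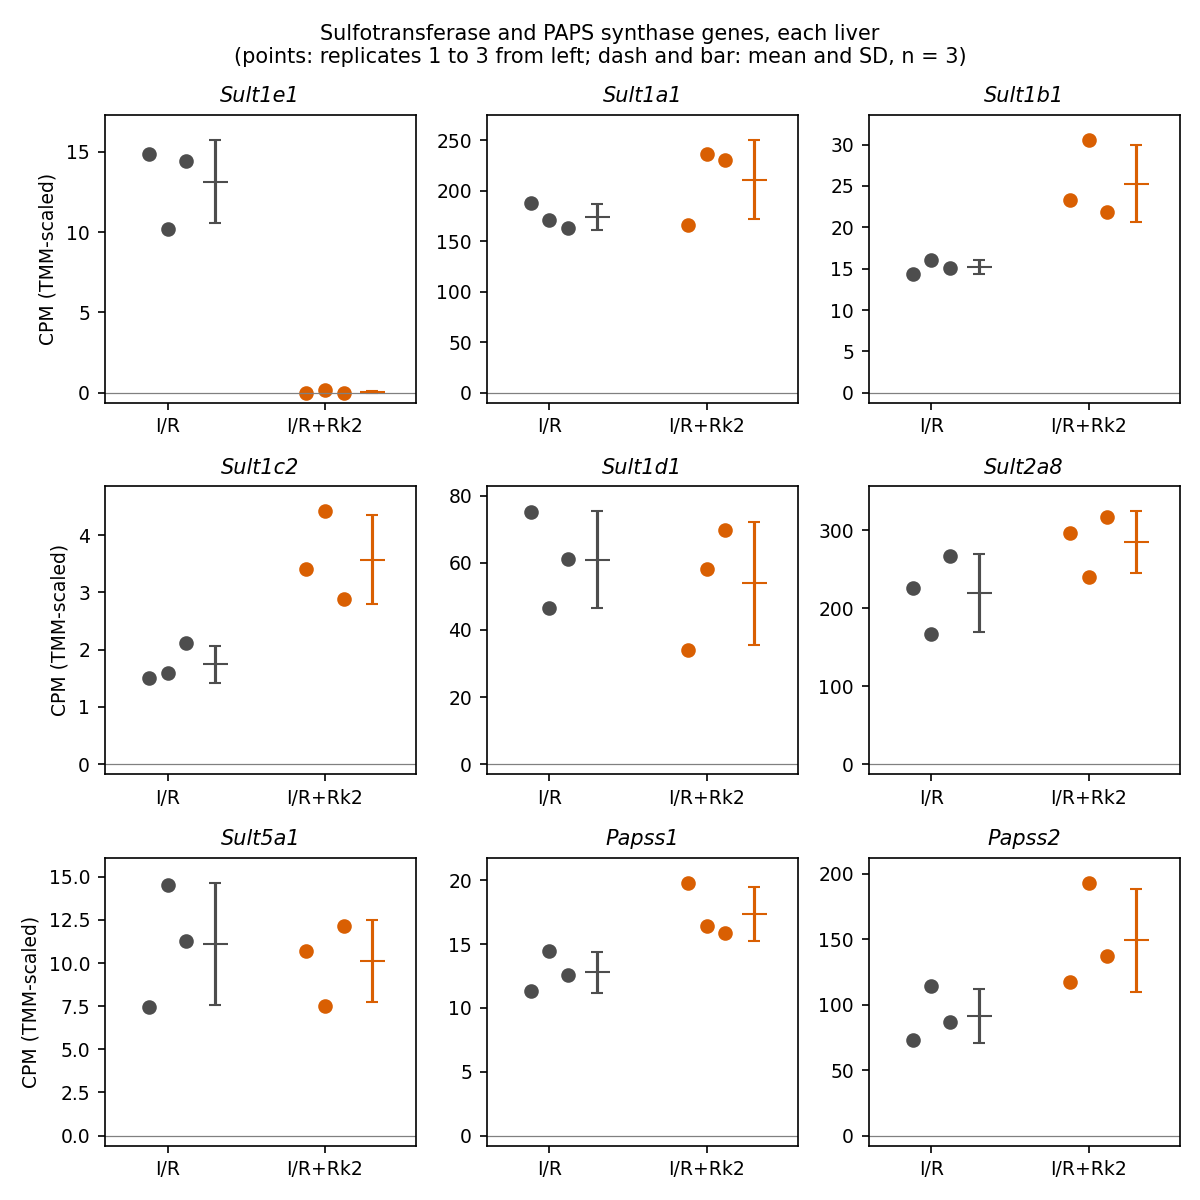
Level of each of the 9 genes in CPM (y axis, TMM-scaled, linear, a separate scale for each gene) in the 3 I/R livers (grey) and the 3 I/R+Rk2 livers (orange); points are livers 1 to 3 from left to right, and the dash with its bar is the mean and SD. Sult1e1 lay between 10.2 and 14.9 CPM in the I/R livers and at 0 to 0.148 CPM in I/R+Rk2, whereas Sult1a1, Sult1d1, Sult2a8 and Sult5a1 overlapped between the groups.

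Sult1e1 lies on the minus strand of chromosome 5 (87575969 to 87591594, GRCm38), beside Sult1d1 (87554645 to 87569027) and Sult1b1 (87513339 to 87538195), which are also on the minus strand. All 3 genes fit within 78.3 kb, with 6.9 kb between Sult1e1 and Sult1d1 and 16.4 kb between Sult1d1 and Sult1b1. Sult1d1 acts on catecholamines and phenols, and Sult1b1 on thyroid hormones. The stretch just upstream of each start site is shown because these neighbours differed in how their levels compared between the groups. Each is read 5' to 3' on the gene's strand, comes from the 250 bases before the RefSeq start site (GRCm38.p6), and leaves out bases that GENCODE places in an exon, which took away the 21 bases nearest the Sult1d1 start. Sult1b1 has a further RefSeq start site within the gene, whose upstream stretch held neither orientation of the motif below and is not shown. Capitals mark AGGTCA or its reverse complement TGACCT, the core motif of many nuclear receptors.
Sult1e1, chr5:87591612-87591861, minus strand: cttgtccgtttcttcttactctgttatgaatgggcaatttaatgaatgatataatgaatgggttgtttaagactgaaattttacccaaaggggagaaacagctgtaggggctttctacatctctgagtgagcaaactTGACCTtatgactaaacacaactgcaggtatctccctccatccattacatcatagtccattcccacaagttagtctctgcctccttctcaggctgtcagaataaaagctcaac
Sult1d1, chr5:87569028-87569256, minus strand: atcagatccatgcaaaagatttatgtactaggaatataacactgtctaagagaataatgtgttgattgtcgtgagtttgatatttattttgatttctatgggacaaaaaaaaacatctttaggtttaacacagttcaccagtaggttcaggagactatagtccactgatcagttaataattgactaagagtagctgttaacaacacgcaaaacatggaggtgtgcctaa
Sult1b1, chr5:87538196-87538445, minus strand: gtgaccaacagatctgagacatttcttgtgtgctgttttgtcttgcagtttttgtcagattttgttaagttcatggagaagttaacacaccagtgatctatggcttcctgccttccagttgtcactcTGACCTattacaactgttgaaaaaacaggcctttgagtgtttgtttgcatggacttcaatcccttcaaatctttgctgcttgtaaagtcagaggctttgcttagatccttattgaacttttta

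TGACCT occurred once upstream of Sult1e1, 113 to 108 bases before the start, and once upstream of Sult1b1, 123 to 118 bases before it. The Sult1d1 stretch held neither orientation. AGGTCA in either orientation was found in 14% of the 32851 RefSeq mouse promoter windows of 250 bases, so a match is common. The letters TGACNNNGC, the core recognised by the oxidative stress factor NRF2, can overlap TGACCT; they were searched on both strands, matched none of the 3 stretches, and were present in 10.2% of all windows. These matches describe letters in a window and were not tested as binding sites.

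The counts of Sult1e1 were 285, 261 and 362 in I/R livers 1 to 3, and 0, 5 and 0 in I/R+Rk2 livers 1 to 3. In CPM these were 14.9, 10.2 and 14.4 against 0, 0.148 and 0. Every I/R liver thus held at least 261 reads of the gene, while the reads of the I/R+Rk2 group all came from liver 2, the most deeply sequenced library. The mean was 13.2 ± 2.58 CPM for I/R against 0.0493 ± 0.0855 CPM for I/R+Rk2 (± is the SD, n = 3 livers a group). Summed over livers and scaled by depth, 908 against 5 counts gave a ratio of 191.9 (95% interval 81.93 to 592.4, which covers counting error only). A count of 0 allowed up to 0.126 CPM in liver 1 and 0.184 CPM in liver 3 of the I/R+Rk2 group. The fitted log2 fold change was -7.52 (SE 0.53), and its size depended on how zeros were handled: it was -3.47 on log2(FPKM + 1) and ran from -11.2 to -7.00 when 1 liver at a time was left out, the lowest being the fit without I/R+Rk2 liver 2.

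Sult1d1 and Sult1b1, the neighbours of Sult1e1, kept measurable levels in both groups. Sult1d1 stood at 75.2, 46.5 and 61.0 CPM in the I/R livers and at 33.9, 58.0 and 69.6 CPM in the I/R+Rk2 livers. The groups overlapped almost fully, with means of 60.9 ± 14.4 and 53.8 ± 18.2 CPM and a log2 fold change of -0.18 (SE 0.28). The sign was not stable, since the value became 0.01 without I/R liver 1 and 0.06 without I/R+Rk2 liver 1. Sult1b1 measured 14.4, 16.1 and 15.03 CPM in the I/R livers and 23.3, 30.6 and 21.9 CPM in I/R+Rk2. Here the I/R livers lay within a narrow band and all 3 I/R+Rk2 livers above it, with means of 15.2 ± 0.853 and 25.2 ± 4.65 CPM and a log2 fold change of 0.74 (SE 0.15).

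Within 500 kb on each side of the Sult1e1 start site, a window chosen after the values were seen, GENCODE lists 23 protein-coding genes, and 8 had a row in the count table. Besides the 3 sulfotransferases, these were Ugt2b36, Ugt2b5, Ugt2b37, Ugt2a3 and Ugt2b38, which encode enzymes that attach glucuronic acid to steroids and drugs. Ugt2b36 rose from 321 ± 24.7 to 496 ± 40.5 CPM (log2 fold change 0.63, SE 0.10, edgeR adjusted p = 0.00326). Ugt2b5 and Ugt2a3 rose as well, by 0.55 and 0.41, with edgeR adjusted p-values of 0.00439 and 0.0243. The log2 fold changes of Ugt2b37 and Ugt2b38 were 0.17 and -0.01, with adjusted p-values of 0.226 and 0.924 in the same edgeR test. Of the 8 genes, Sult1e1 was the one with a fold change above 2.

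**Figure D2:**
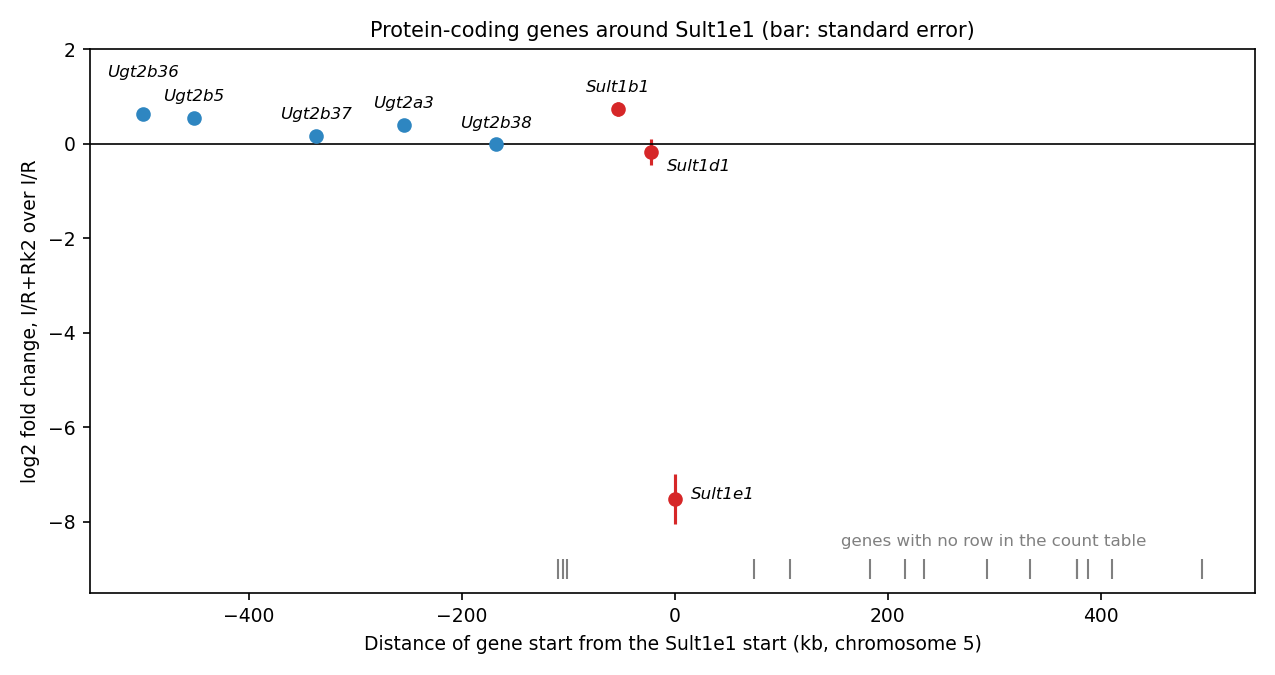
Log2 fold change of I/R+Rk2 over I/R (y axis, bar: standard error) against the distance of each gene's start from the Sult1e1 start in kb (x axis), for the 8 protein-coding genes of the window that were tested; red points are sulfotransferases, blue points are Ugt2 genes, and grey ticks are genes with no row in the count table. Sult1e1 at -7.52 lies far below the other 7 points, which run from -0.18 to 0.74.

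Sult1a1, the main phenol sulfotransferase of the liver, and Sult2a8, which acts on bile acids, were the most abundant of the 9 genes. Sult1a1 measured 188, 171 and 163 CPM in the I/R livers and 166, 237 and 231 CPM in the I/R+Rk2 livers. Livers 2 and 3 of the I/R+Rk2 group were above every I/R liver, while liver 1 lay inside the I/R range. The means were 174 ± 12.7 and 211 ± 39.1 CPM, with a log2 fold change of 0.28 (SE 0.15). Exons of Sult1a1 (chromosome 7, 126672865 to 126676432) overlap those of Sgf29 on the opposite strand, and reads of the pair cannot be told apart if strand was not used in counting.

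Sult2a8 measured 226, 166 and 266 CPM in the I/R livers and 297, 240 and 316 CPM in I/R+Rk2. I/R+Rk2 liver 2 fell inside the I/R range, so the groups overlapped, with means of 219.5 ± 50.2 and 284 ± 39.5 CPM and a log2 fold change of 0.37 (SE 0.18). Sult2a8 belongs to a family of close copies on chromosome 7, and how reads that match several copies were assigned is not given in the sources used here. The FPKM rows of its relatives Sult2a1, Sult2a3, Sult2a4, Sult2a5 and Sult2a6 were listed at 0 in every liver.

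Sult1c2 was the least abundant of the 9 genes in the I/R livers and Sult5a1 the most variable among livers of the I/R group, with a coefficient of variation of 32.0%. Sult1c2 had 29, 41 and 53 counts in I/R and 81, 149 and 47 counts in I/R+Rk2, or 1.51, 1.60 and 2.11 against 3.40, 4.41 and 2.89 CPM. All 3 I/R+Rk2 livers were above the I/R livers, with means of 1.74 ± 0.325 and 3.57 ± 0.775 CPM and a log2 fold change of 1.04 (SE 0.25). That value was near the fold limit and dropped to 0.85 without I/R+Rk2 liver 2. Sult5a1 measured 7.46, 14.6 and 11.3 CPM in the I/R livers and 10.7, 7.52 and 12.2 CPM in I/R+Rk2. Its groups overlapped fully, at 11.1 ± 3.55 and 10.1 ± 2.37 CPM (log2 fold change -0.14, SE 0.27), and the sign turned without I/R liver 2 (0.10) and without I/R+Rk2 liver 2 (0.04).

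Both PAPS synthases lay higher in the I/R+Rk2 livers, without overlap. Papss2, the more abundant of the pair, measured 72.9, 114 and 87.1 CPM in the I/R livers and 117, 193 and 137 CPM in I/R+Rk2. The lowest I/R+Rk2 liver was only just above the highest I/R liver, with means of 91.4 ± 21.0 and 149 ± 39.4 CPM and a log2 fold change of 0.71 (SE 0.23). Papss1 measured 11.3, 14.5 and 12.6 CPM in the I/R livers and 19.8, 16.4 and 15.8 CPM in I/R+Rk2, with means of 12.8 ± 1.59 and 17.4 ± 2.13 CPM and a log2 fold change of 0.44 (SE 0.14). The ratio of Papss2 to Papss1 counts was 6.45, 7.89 and 6.92 in I/R and 5.92, 11.8 and 8.66 in I/R+Rk2, so the balance between the synthases overlapped between the groups. Both synthases kept an adjusted p below 0.05 when relative log expression (RLE) or upper-quartile scaling replaced TMM, and with DESeq2. Neither kept it with library size alone, with FPKM, or without I/R liver 1, I/R liver 3 or I/R+Rk2 liver 2. In those fits the log2 fold changes were 0.24 to 0.48 for Papss1 and 0.48 to 0.67 for Papss2.

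**Figure D3:**
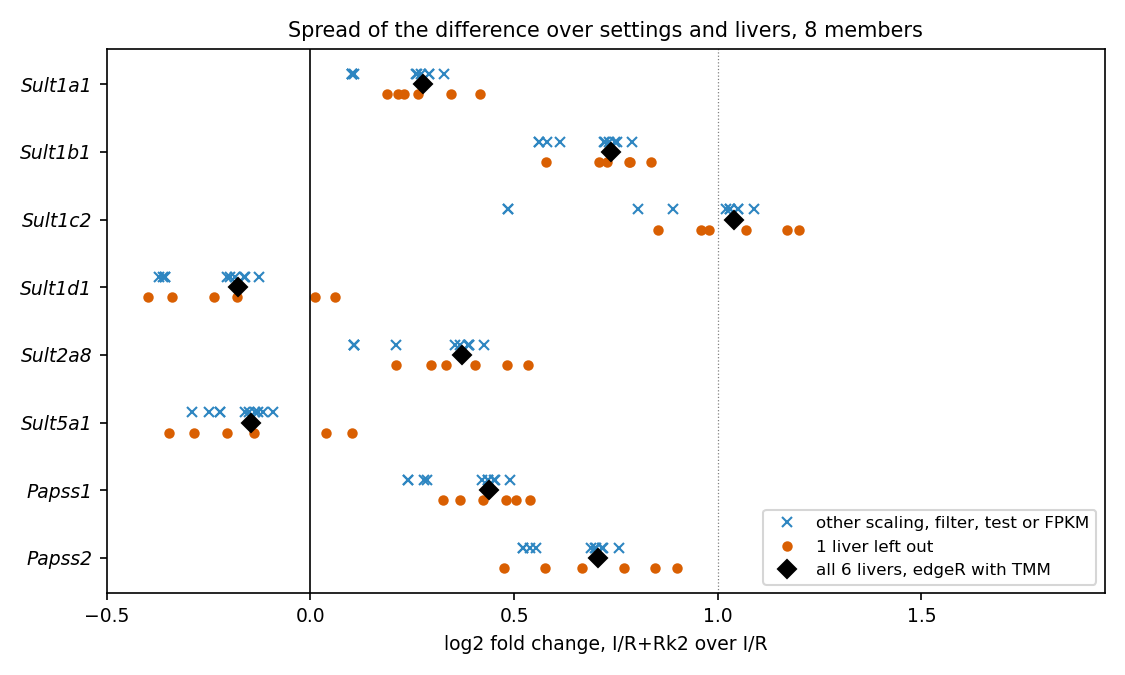
Log2 fold change of I/R+Rk2 over I/R (x axis) for the 8 genes other than Sult1e1; the diamond is the value from all 6 livers, orange points leave out 1 liver each, and blue crosses use another scaling, filter, test or the FPKM table. Values of Sult1b1, Sult1c2, Papss1, Papss2, Sult1a1 and Sult2a8 stayed above 0, and those of Sult1d1 and Sult5a1 crossed 0 when certain livers were left out.

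Levels of different genes can be compared only per transcript length, so the deposited FPKM values were used to order them. In the I/R livers Sult1a1 (135.7 ± 18.9 FPKM) and Sult2a8 (131.5 ± 40.5 FPKM) led and did not differ beyond their spread. Sult1d1 (25.2 ± 7.47 FPKM) and Papss2 (24.8 ± 4.69 FPKM) came next, also within their spread of each other. Sult1e1 (10.5 ± 2.50 FPKM), Sult5a1 (8.13 ± 4.21 FPKM) and Sult1b1 (7.93 ± 0.626 FPKM) came after these, ahead of Papss1 (4.70 ± 0.542 FPKM) and Sult1c2 (0.929 ± 0.139 FPKM). In the I/R+Rk2 livers Sult1a1 (146.1 ± 23.8 FPKM) and Sult2a8 (137.6 ± 15.7 FPKM) again led, Papss2 (36.4 ± 9.43 FPKM) stood above Sult1d1 (19.6 ± 6.15 FPKM) in every liver, and Sult1e1 (0.0282 ± 0.0488 FPKM) was last. The FPKM of Sult5a1 needs caution, because its FPKM per CPM varied 2.49-fold between livers, against 1.22-fold to 1.504-fold for the other 8 genes.

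In the deposited FPKM, which does not carry the TMM scaling, the sulfotransferase pool as a whole overlapped between the groups. In TMM-scaled CPM, the summed level of the 9 genes, synthases included, did not overlap. That sum was 555.2 to 633.2 CPM in I/R and 670.9 to 806.3 CPM in I/R+Rk2. Summed over the 21 Sult genes of the FPKM table, 8 of which were listed at 0 in every liver, the pool was 353, 268 and 342 FPKM in I/R and 297, 328 and 353 FPKM in I/R+Rk2. Sult1a1 and Sult2a8 together made up 81.6%, 81.8% and 85.8% of it in I/R and 87.8%, 86.7% and 86.96% in I/R+Rk2. With Sult1e1 taken out of the pool, a step added after seeing the data, these shares were 84.7%, 84.3% and 88.6% in I/R and overlapped those of I/R+Rk2, which ran from 86.7% to 87.8%. The Sult1e1 share was 3.61%, 2.92% and 3.22% in I/R, and 0%, 0.0258% and 0% in I/R+Rk2. Sult1b1 made up 2.39%, 3.03% and 2.11% in I/R and 3.94%, 4.45% and 2.99% in I/R+Rk2, where liver 3 lay inside the I/R range.

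**Figure D4:**
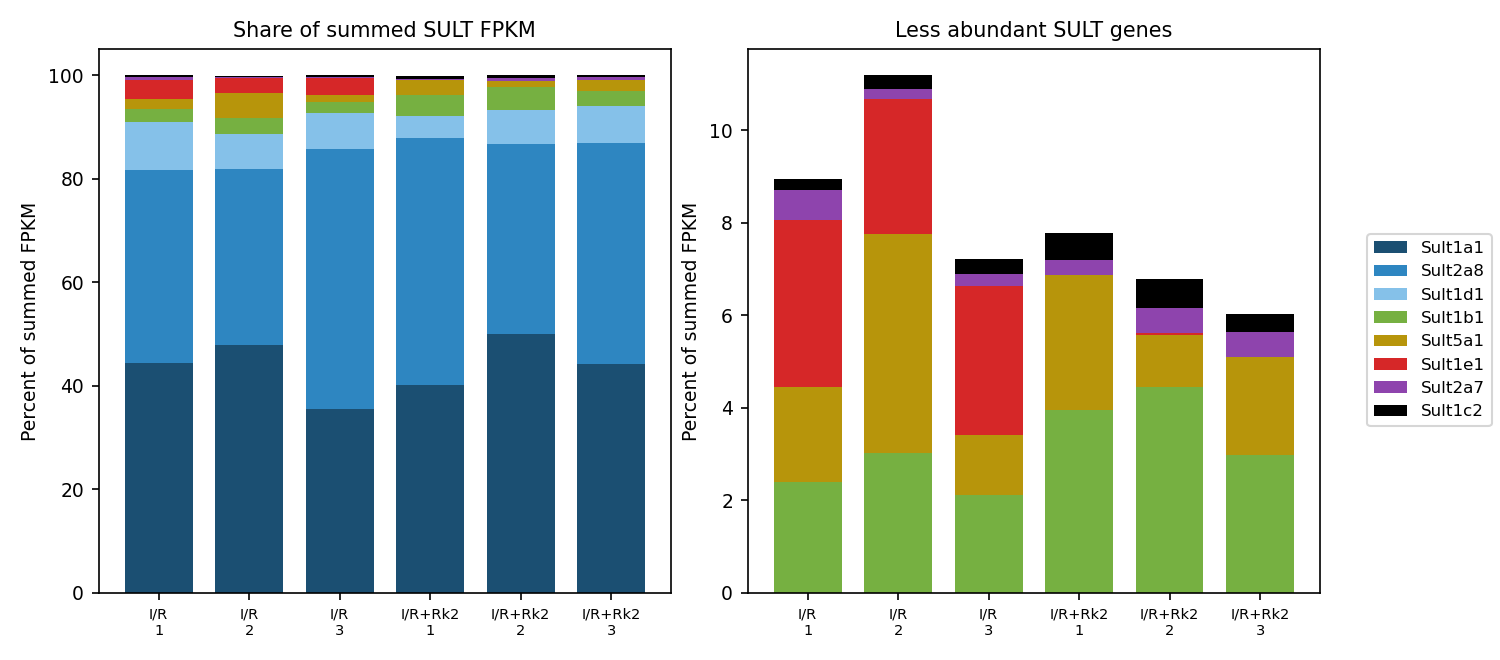
Share of each Sult gene in the summed FPKM of all Sult genes (y axis, percent) in each of the 6 livers, stacked for the 8 most abundant genes (left) and for the 5 least abundant of these on an expanded scale (right). The Sult1e1 segment is 2.92% to 3.61% of the pool in the I/R livers and at most 0.0258% in the I/R+Rk2 livers.

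The remaining cytosolic sulfotransferases were scarce. Of 14 listed, 6 had a row in the count table and 1, Sult2a7, had enough counts to be tested. Sult2a7 measured 1.09 ± 0.72 CPM in the I/R livers and 1.47 ± 0.485 CPM in I/R+Rk2, and its log2 fold change of 0.46 (SE 0.52) did not pass (edgeR adjusted p = 0.50).

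To place the 9 genes in their pathway, 4 further lists were examined: the other cytosolic sulfotransferases above, sulfate and PAPS supply, Golgi sulfotransferases, and sulfatases. Of their 48 tested genes, 18 rose and 8 fell at an adjusted p below 0.05 by edgeR, and 22 did not pass, where 20.3% of all genes tested rose and 23.7% fell. The median log2 fold change was 0.32, against -0.01 for all genes tested. The count of genes that rose dropped to 10 with library size alone in place of TMM scaling and to 9 to 12 with FPKM.

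Genes that supply sulfate and PAPS were mostly higher with Rk2. Of 16 tested, 10 rose, 1 fell and 5 did not pass, where 20.3% of all genes tested rose and 23.7% fell. The largest rise on the log2 scale was 0.96, and the median log2 fold change was 0.61. Tst, a mitochondrial sulfurtransferase, measured 126, 147 and 129 CPM in the I/R livers and 262, 255 and 222 CPM in I/R+Rk2, and rose by 0.88 (SE 0.10, edgeR adjusted p = 0.00113). Mpst, which handles sulfur from cysteine, rose by 0.81 (SE 0.12, adjusted p = 0.00207), and Cbs, the first enzyme of the transsulfuration route, by 0.49 (SE 0.08, adjusted p = 0.00316), both by edgeR. Slc26a1, a sulfate carrier of the hepatocyte membrane, rose from 81.7 ± 3.96 to 141 ± 22.2 CPM (edgeR adjusted p = 0.0033). Ethe1, an enzyme of the mitochondrial sulfide oxidation route, rose by 0.96 (SE 0.16, edgeR adjusted p = 0.00376). Exons of Slc26a1 overlap Idua, and those of Ethe1 overlap Zfp575, on the opposite strand. The 1 gene that fell, named after its value was seen, was Slc26a2, a widely expressed sulfate carrier, from 7.41 ± 0.929 to 4.29 ± 0.147 CPM (edgeR adjusted p = 0.0055). Summed over the list, the level was 2170 to 2234 CPM in the I/R livers and 3163 to 3905 CPM in I/R+Rk2.

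These supply genes are expressed by hepatocytes, and most hepatocyte markers were higher in the same livers. Of 10 hepatocyte markers, 6 rose and 4 did not pass, with a median log2 fold change of 0.40, where 20.3% of all genes tested rose. Their log2 fold changes were positive for 8 markers and negative for 2. Ttr, a plasma carrier protein, rose by 1.06 (edgeR adjusted p = 0.00132) and Asgr1, a hepatocyte surface receptor, by 0.55 (edgeR adjusted p = 0.00316). The part of hepatocyte content in the values of the 9 genes was not tested, and in whole liver fewer cells of a type cannot be told apart from less RNA per cell.

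Golgi sulfotransferases, which use the same PAPS to sulfate glycosaminoglycans, glycolipids and tyrosines of secreted proteins, showed no common direction. Of 19 tested, 3 rose, 6 fell and 10 did not pass, where 20.3% of all genes tested rose and 23.7% fell. Their median log2 fold change was -0.11. Chst11, a chondroitin 4-O-sulfotransferase, measured 11.4, 10.5 and 12.5 CPM in the I/R livers and 3.03, 1.18 and 1.66 CPM in I/R+Rk2, a fall of 2.56 on the log2 scale (SE 0.32, edgeR adjusted p = 0.0013). Chst15, which adds a further sulfate to chondroitin, fell by 0.93 (SE 0.13, adjusted p = 0.0021), and Hs2st1, a heparan sulfate 2-O-sulfotransferase, fell by 0.78 (SE 0.14, adjusted p = 0.00478), both by edgeR. Ust, a uronyl sulfotransferase with under 1 CPM in either group, fell from 0.956 ± 0.168 to 0.317 ± 0.0668 CPM (edgeR adjusted p = 0.00954). Tpst1, a tyrosylprotein sulfotransferase, rose by 0.51 (SE 0.12, edgeR adjusted p = 0.0125). That call was lost in edgeR with library size alone (adjusted p = 0.076) and with FPKM in limma (adjusted p = 0.207 to 0.244).

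Leukocyte markers were lower in the same livers in which Sult1e1 and Chst11 were lower. All 8 monocyte markers fell, with a summed level of 182 to 214 CPM in the I/R livers and 9.83 to 17.4 CPM in I/R+Rk2. Of 8 neutrophil markers, 7 fell, with a summed level of 502 to 621 CPM and 93.5 to 221 CPM in turn. Of all genes tested, 23.7% fell. Adipocytes are a known site of Sult1e1, and their markers were scarce in both groups. Of 6 adipocyte markers, 3 had a row in the count table, and none had enough counts to be tested. Their summed level was 0 to 0.199 CPM in the I/R livers and 0 to 0.614 CPM in I/R+Rk2. Adipoq and Plin1 had 0 counts in every I/R liver, and Retn had 0.17 FPKM in I/R liver 3. The part of leukocyte or adipocyte content in the Sult1e1 and Chst11 values was not tested.

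Sulfatases, which remove sulfate groups, were more often higher than lower. Of 12 tested, 5 rose, 1 fell and 6 did not pass, where 20.3% of all genes tested rose and 23.7% fell. Their median log2 fold change was 0.33. Arsk, a lysosomal sulfatase, measured 2.92, 3.71 and 2.75 CPM in the I/R livers and 5.55, 7.05 and 5.16 CPM in I/R+Rk2, and rose by 0.92 (SE 0.20, edgeR adjusted p = 0.00946). On log2(FPKM + 0.1) in limma its rise was 0.70 with an adjusted p of 0.0572.

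**Figure D5:**
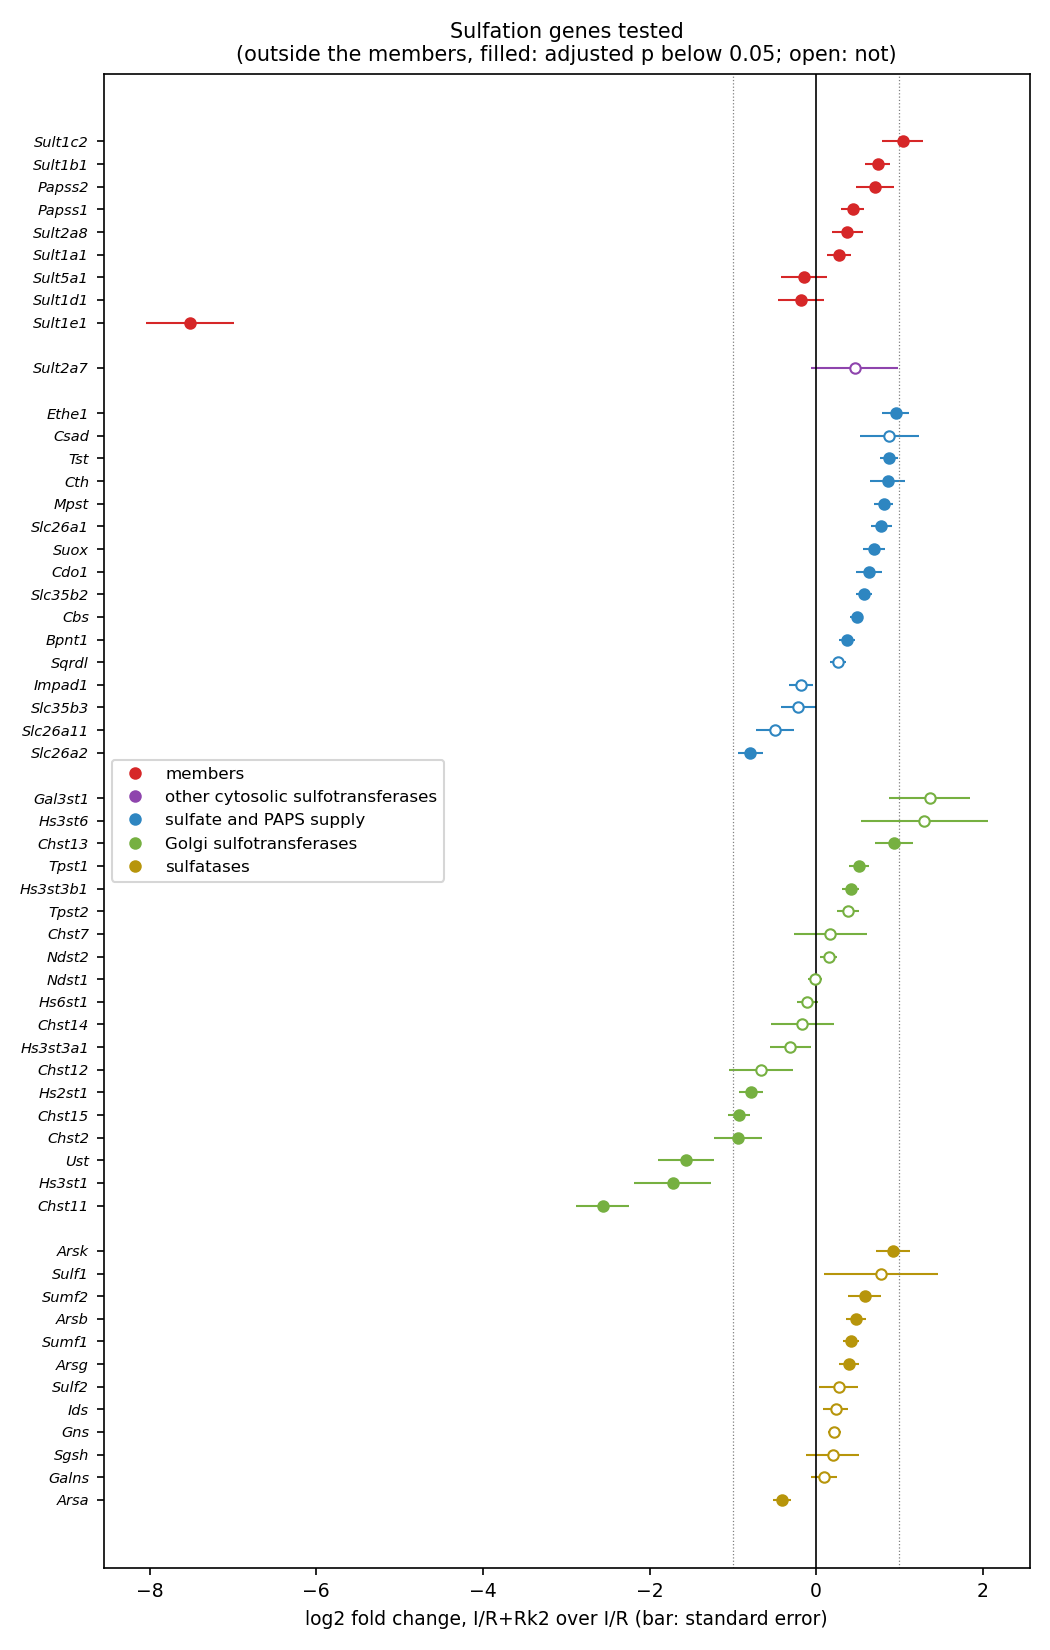
Log2 fold change of I/R+Rk2 over I/R (x axis, bar: standard error) for the 9 genes (red) and the 48 other sulfation genes tested, grouped by list; outside the 9 genes, filled points have an adjusted p below 0.05 and open points do not, and dotted lines mark a fold change of 2. Most supply genes (blue) lie to the right of 0, Golgi sulfotransferases (green) spread to both sides, and Sult1e1 lies far to the left of every other gene.

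Targets of NRF2, regulators of sulfotransferase genes and genes acting on estrogens were examined next. NRF2, encoded by Nfe2l2, is a factor activated by oxidative stress. Of 14 NRF2 targets tested, 7 fell, all with a fold change above 2, 2 rose and 5 did not pass, and the median log2 fold change was -0.66. Over all genes tested, 20.3% rose and 23.7% fell, and 11.4% fell with a fold change above 2. Hmox1, heme oxygenase 1, measured 282, 277 and 321 CPM in the I/R livers and 53.7, 44.8 and 42.0 CPM in I/R+Rk2, a fall of 2.65 on the log2 scale (SE 0.12, edgeR adjusted p = 0.000197). Srxn1, which repairs oxidised peroxiredoxins, fell by 2.64 (edgeR adjusted p = 0.00024), and Slc7a11, the cystine importer, by 2.51 (edgeR adjusted p = 0.000265). Gclc, an enzyme of glutathione synthesis, fell by 1.61 (edgeR adjusted p = 0.000366), and Nfe2l2 itself fell by 0.74 (edgeR adjusted p = 0.00471). The part of these genes in the Sult1e1 difference was not tested.

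Of 14 transcription regulators reported to control sulfotransferase genes, 5 rose, 3 fell and 6 did not pass, where 20.3% of all genes tested rose and 23.7% fell. Nr1h4, the bile acid receptor FXR, rose from 42.0 ± 3.01 to 80.3 ± 1.55 CPM (edgeR adjusted p = 0.000501). Nr1h3, the oxysterol receptor LXR alpha, rose by 0.84 (edgeR adjusted p = 0.00377). Ahr, the receptor for dioxins and other aryl hydrocarbons, fell by 0.94 (edgeR adjusted p = 0.00215). Of 12 tested genes for estrogen receptors and for enzymes acting on estrogens, 9 rose and 3 did not pass, with a median log2 fold change of 0.60. Hsd17b2, which converts estradiol to the weaker estrone, rose from 132 ± 23.6 to 244 ± 11.5 CPM (edgeR adjusted p = 0.00288), and Hsd17b11, a related dehydrogenase, by 0.61 (edgeR adjusted p = 0.00559).

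To find genes distributed over the livers like Sult1e1, each gene's log2 CPM was centred on its own mean, and the root mean square difference from Sult1e1 over the 6 livers was taken. The closest were Zbtb9 (0.582), Syt12 (0.756), Ms4a8a (0.939), Nos2 (0.960) and 1700047I17Rik2 (1.05). They were picked for this likeness, so their low levels in I/R+Rk2 follow from the choice and are no separate result. Nos2, the inducible nitric oxide synthase, had 44, 72 and 127 counts in I/R and 0 in each I/R+Rk2 liver. Ms4a8a, a myeloid membrane protein, had 80, 117 and 85 counts in I/R and 0, 7 and 0 in I/R+Rk2, with its reads in the same I/R+Rk2 liver as those of Sult1e1. Syt12, a synaptotagmin, had 3109, 3894 and 2480 counts in I/R and 44, 39 and 24 in I/R+Rk2. Zbtb9 shares exons with Ggnbp1, exons of Syt12 overlap a transcript on the opposite strand, and 1700047I17Rik2 has counts almost equal to those of its near copy Fam177a, so these 3 are uncertain.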

How the data were processed

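Liver RNA (250 ng per sample) was sequenced in 6 libraries. The authors' processing notes name FastQC 0.11.5, HISAT2 2.2.1, StringTie 1.3.3 and the build mm10; annotation, strand setting and counting step are not given in the sources used here. The authors deposited whole-number counts per gene and FPKM values per gene; both were used as deposited. Each library column was matched to a sample by name.

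The count table was fitted with edgeR 4.0.16 (R 4.3.3): filterByExpr, TMM scaling, and the quasi-likelihood F test of I/R+Rk2 against I/R on all 6 livers without covariates. Benjamini-Hochberg adjustment covered the 12411 genes tested. Limits were 0.05 for the adjusted p and 2 for the fold change, as in the study. CPM uses TMM-scaled library sizes, and the SE is the absolute log2 fold change divided by the square root of F. Alternatives were other scalings and filters, DESeq2 1.42.0, limma 3.58.1 on log2(FPKM + 1) and log2(FPKM + 0.1), a replicate block, and leaving out each liver. Scripts were tested on simulated counts.

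Named genes were the 9 genes, the other cytosolic sulfotransferases tested, up to 5 genes with the smallest p of each functional list, up to 2 of each cell type list, and the 5 genes most like Sult1e1. Of the genes this rule selects, 1 is not reported here, though it stayed in every test and count. The members and lists were chosen with earlier results of these data known. Replicates of a group differed far beyond sampling noise (chi-square per degree of freedom 31.4 to 74.8). Counting intervals and floors treat reads as independent molecules, which PCR copies are not.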

Additional observations from a re-analysis of the deposited data

How the results depend on the processing

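Direction held for Sult1e1, Sult1a1, Sult1b1, Sult1c2, Sult2a8, Papss1 and Papss2 under every alternative that could test them. It reversed for Sult1d1 when replicate 1 of I/R (0.0119) or of I/R+Rk2 (0.0597) was left out (range over livers -0.398 to 0.0597), and for Sult5a1 when replicate 2 of I/R (0.101) or of I/R+Rk2 (0.037) was left out (range -0.348 to 0.101). The 9 genes past both limits numbered 2, and 1 without TMM scaling (library size alone), with at least 10 counts in every library (where Sult1e1 could not be tested) and in each of the 3 limma fits to FPKM; leaving out 1 liver gave 1 to 2, with 1 without I/R replicate 1, I/R replicate 2 or I/R+Rk2 replicate 2. Those with an adjusted p below 0.05 numbered 5, and 3 with library size alone and in each limma fit; leaving out 1 liver gave 2 to 5, with 3 when I/R replicate 1 or 3 was left out and 2 when I/R+Rk2 replicate 2 was. Papss1 and Papss2 were among those lost each time.

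Of all genes, 1813 were past both limits, 901 by limma on log2(FPKM + 1) after a filter on mean FPKM (1 or more), 921 without that filter, and 1543 to 2012 with 1 liver left out. Other sulfation genes past both limits numbered 3, and 5 with upper-quartile scaling or library size alone, 1 with at least 10 counts in every library and 1 on log2(FPKM + 1) with or without the filter; leaving out 1 liver gave 2 to 8, with 5 leaving out I/R replicate 2, 8 leaving out replicate 3 of I/R+Rk2, and 2 leaving out I/R replicate 3 or replicate 2 of I/R+Rk2. Those that rose numbered 18, and 10 with library size alone or on log2(FPKM + 0.1), 9 on log2(FPKM + 1) without filter, and 12 to 19 with 1 liver left out (12 without I/R replicate 3 or I/R+Rk2 replicate 2). Those that fell numbered 8, 4 on log2(FPKM + 1) and log2(FPKM + 0.1) with the filter, and 5 to 6 with 1 liver left out (5 without I/R replicate 1 or I/R+Rk2 replicate 2). The cause of these shifts was not tested.

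With the replicate number as a block, 1690 genes and 2 of the 9 genes were past both limits, 5 of the 9 had an adjusted p below 0.05, and 4 other sulfation genes were past both limits, with 17 that rose and 7 that fell. Same-numbered livers did not deviate together (correlations of -0.0559, 0.00522 and -0.0579), so no pairing by number was seen, though so few livers cannot exclude one. Among the 74 genes followed one by one, the block changed the calls of Sult2a8, Papss1 and Arsg. Of 1171 values over 74 genes, 1074 kept direction and side of the threshold, 86 lost and 7 gained a call, and 4 reversed. Depth limits Sult1e1 in the I/R+Rk2 livers and Sult1c2 in the I/R livers, where counts were lowest.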

Other observations

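Other gene groups of steroid and drug handling, outside sulfation, were measured in the same livers. Over all genes tested, 20.3% rose and 23.7% fell, the shares to set beside each count here. Of 15 tested genes known to be higher in male than female mouse liver, 6 rose and 9 did not pass, with a median log2 fold change of 0.35. Elovl3, a fatty acid elongase, rose from 189 ± 24.1 to 519 ± 164 CPM (edgeR adjusted p = 0.00353), Hsd3b5, a steroid dehydrogenase, from 86.9 ± 26.0 to 233 ± 34.3 CPM (edgeR adjusted p = 0.00332), and Cyp2u1, a fatty acid hydroxylase, from 10.8 ± 0.238 to 27.9 ± 7.48 CPM (edgeR adjusted p = 0.00189). Of 10 tested genes known to be higher in females, 2 rose, 3 fell and 5 did not pass, with a median log2 fold change of 0.44. Their log2 fold changes were positive for 7 genes and negative for 3. Abcb1a, a drug exporter, fell by 1.47 on the log2 scale (edgeR adjusted p = 0.00508). The difference between the lists was not tested. Of 19 UDP-glucuronosyltransferases tested, 7 rose and 1 fell, with a median of 0.55, and Ugt3a2 rose from 218 ± 20.3 to 320 ± 10.4 CPM (edgeR adjusted p = 0.00397).

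Markers of other liver cells were also measured, and their counts stand beside the same shares of all genes tested (20.3% rose, 23.7% fell). Of 8 Kupffer cell markers, 1 fell, Cd5l, a secreted macrophage protein (edgeR adjusted p = 0.0114), and the summed level was 74.2 to 115 CPM in the I/R livers and 61.5 to 74.8 CPM in I/R+Rk2. Of 6 cholangiocyte markers, 2 fell, with Spp1, osteopontin, from 162 ± 29.7 to 70.6 ± 14.1 CPM (edgeR adjusted p = 0.00296). Of 6 endothelial markers, 3 rose and 2 fell, with Lyve1 lower (edgeR adjusted p = 0.00107) and Clec4g higher (edgeR adjusted p = 0.00134). Of 6 stellate cell markers, 2 fell, with a summed level of 185 to 244 CPM in the I/R livers and 141 to 143 CPM in I/R+Rk2.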
